A study of Homo sapiens with 2 samples.

Results

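The genes described here are 34 chaperones, folding enzymes, stress sensors, degradation factors and translocon subunits of the endoplasmic reticulum (ER), taken by gene symbol from the 58698 genes of the deposited table. RNA came from MIA PaCa-2, an established human pancreatic cancer cell line. The control culture carried a guide against GFP (sgGFP, genotype given as WT) and the other a guide against TPST2 (sgTPST2, genotype given as TPST2 KD); TPST2 is a Golgi enzyme that sulfates tyrosines of secreted and membrane proteins. Both cultures carried a guide, and the sources used here do not say whether each was a clone or a pool, how long after the guide RNA was taken, or how the guide acted. Each condition was 1 library, so the differences below have no replicate error and no p-value of their own.

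Proteins that enter the secretory pathway are threaded through the SEC61 channel, folded in the ER lumen by chaperones and disulfide isomerases, and sent to degradation if they fail to fold. When unfolded protein builds up, the sensors IRE1 (gene ERN1), PERK (EIF2AK3) and ATF6 raise the transcription of chaperones and degradation genes, in part through spliced XBP1. ATF6 and XBP1 act through ER stress elements in promoters, and exocrine pancreas, a tissue that secretes large amounts of protein, is known for high activity of this system.

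Values are in FPKM, that is, fragments counted per kilobase of transcript and scaled for library size, a unit that the table's header does not name and that is assumed because Cuffdiff reports it. The columns sum to 1010080 in sgGFP and 1000940 in sgTPST2, so a unit scaled to a fixed sum per library is also possible; the ratios between the libraries do not rest on the name of the unit. Differences are log2((sgTPST2 + 1)/(sgGFP + 1)), so a negative value means lower in sgTPST2, and "1.2-fold" and "1.5-fold" are counted on that scale. Ratios of FPKM carry a 95% interval (exact, conditional on the total) for the fragments that 1 kb of transcript would have given; it covers counting error only. It is too narrow for SEC61B and SDF2L1, whose longest coding transcripts are 587 and 865 bp, and too wide for most of the others. From the smallest steps in the low values, 1 FPKM stood for about 42.4 fragments per kb in sgGFP and 47.8 in sgTPST2.

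TPST2 stood at 8.46 FPKM in sgGFP and 1.92 FPKM in sgTPST2, a ratio of 0.226 (0.178 to 0.286). In the authors' deposited table it has q = 0.245. Of 6 epithelial markers, KRT8, KRT18 and KRT19 passed 1 FPKM and were all far more than 1.5-fold lower in sgTPST2. KRT8 stood at 509.9 FPKM in sgGFP and 41.6 in sgTPST2, KRT18 at 583.4 and 85.3, and KRT19 at 189 and 12.8. KRT7 was at 0.615 and 0.112 FPKM, CDH1 is listed at 0 in sgGFP and EPCAM at 0 in both libraries. All 9 acinar and islet markers, which include the secreted enzyme genes of exocrine pancreas, are listed at 0 in both. Among plasma cell markers, which stand for another secretory cell type, SDC1 was the 1 of 6 past 1 FPKM, with a summed level of 27.2 FPKM for the list in sgGFP and 38.8 in sgTPST2. The 7 fibroblast markers summed to 47.6 FPKM in sgGFP and 15.6 in sgTPST2, and only COL1A2 and COL3A1 passed 1 FPKM. The 5 endothelial markers summed to 12.7 and 0.418 FPKM, and only EMCN and CDH5 passed 1 FPKM, both in sgGFP alone. The 6 leukocyte markers summed to 3.02 and 2.05 FPKM, and only CD14 passed 1 FPKM. All other markers of these lists stood under 1 FPKM in both libraries, so each sum rests on the genes named. The part of the marker genes in the results below was not tested.

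Of 19 chaperones, lectins, isomerases and oxidases of the ER lumen and membrane, 7 were at least 1.2-fold lower in sgTPST2 and 0 were higher, while 0 of 10 translocon and degradation genes were 1.2-fold apart in either direction. In bulk RNA, fewer cells that express a gene and less of its RNA per cell cannot be told apart. All 34 genes reached 1 FPKM in at least 1 library, 33 of them in both, and none is listed at 0. Their median difference was -0.10, against -0.00 for the 13420 genes of the table past the same filter. Of the 34, 7 were at least 1.2-fold lower, against 17.3% of all genes, and 2 were at least 1.2-fold higher, against 16.2%. Of these 2, CREB3L2 passed the filter only through sgTPST2, the library in which it was higher. Only HSP90B1 was at least 1.5-fold lower (6.94% of all genes) and 0 were 1.5-fold higher (4.41% of all genes). The 7 make up 20.6% of the 34, near the background, so the count of lower genes alone does not set the whole list apart.

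Within the list, the differences divided by role. All 7 lower genes were among the 19 folding genes (chaperones, lectins, isomerases and oxidases), whose median was -0.22 and of which 15 had a negative difference. The 10 translocon and degradation genes had a median of 0.09, with 0 of them 1.2-fold apart in either direction and 7 above 0. Of all genes past the filter, 17.3% were 1.2-fold lower and 16.2% higher. The other 12 folding genes did not reach 1.2-fold. These 2 groupings joined roles after the values were seen, and the difference between them was not tested. With a pseudocount of 0.1 in place of 1, ATF6, a sensor, joined the lower genes and made them 8. Summed over the 19 folding genes, the level was 2244 FPKM in sgGFP and 1886 in sgTPST2, a change of -15.95%. The translocon genes summed to 350.3 and 395 FPKM, 12.8% higher.

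**Figure D1:**
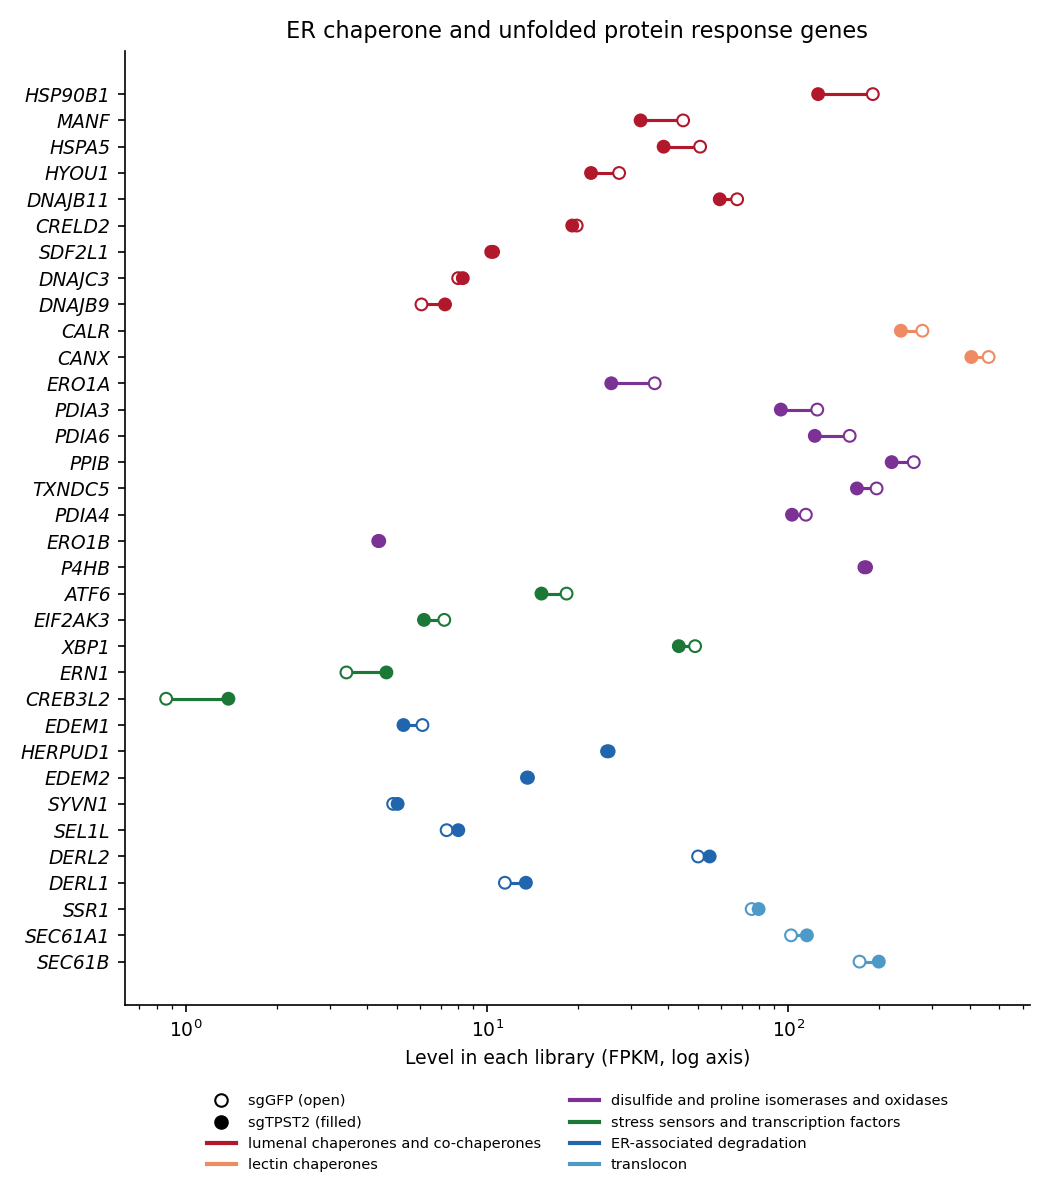
Level of each of the 34 genes in FPKM (log axis) in sgGFP (open circles) and sgTPST2 (filled circles), 1 library each, coloured by role. Filled circles lie left of open ones for HSP90B1, MANF, HSPA5 and most isomerases, and right of them for the 3 translocon genes.

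Among the lumenal chaperones and their partners, HSP90B1 (GRP94, the ER member of the HSP90 family; chromosome 12, 103930107 to 103953645, GRCh38) differed most. It stood at 190.9 FPKM in sgGFP and 125.7 FPKM in sgTPST2, a difference of -0.60 and a ratio of 0.658 (0.637 to 0.681). HSPA5 (BiP, the HSP70 of the ER, which also holds the stress sensors inactive; chromosome 9, 125234853 to 125241330) stood at 51.0 and 38.6 FPKM, a difference of -0.39 and a ratio of 0.756 (0.710 to 0.805). These are the main ATP-driven chaperones of the compartment, and both were lower in sgTPST2 by more than counting error.

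The partners of BiP had differences on both sides of 0. MANF, a secreted ER stress protein that binds BiP (chromosome 3, 51385047 to 51389397), stood at 44.8 FPKM in sgGFP and 32.3 in sgTPST2, a ratio of 0.722 (0.675 to 0.773). HYOU1 (GRP170, a nucleotide exchange factor for BiP; chromosome 11, 119044189 to 119057202) was at 27.4 and 22.1 FPKM, a ratio of 0.807 (0.742 to 0.878). The J-domain co-chaperone DNAJB11 was at 67.6 and 59.2 FPKM, a difference of -0.19. So 4 of the 9 genes of this role were at least 1.2-fold lower, against 17.3% of all genes, and DNAJB11 lay between them and no difference.

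The remaining 4 were close to equal or higher. CRELD2, an ER stress protein with isomerase activity, was at 19.8 and 19.2 FPKM, and SDF2L1, which works with DNAJB11, was at 10.5 and 10.3. DNAJC3 (p58IPK), a co-chaperone and inhibitor of eIF2alpha kinases, was at 8.01 and 8.30 FPKM. DNAJB9 (ERdj4), a strongly XBP1-dependent co-chaperone that represses IRE1, was at 6.05 and 7.24 FPKM, a ratio of 1.198 (1.02 to 1.42). The intervals of CRELD2, SDF2L1 and DNAJC3 hold 1, whereas that of DNAJB9 lies above it.

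The lectin chaperones, which hold newly made glycoproteins by their sugars, were abundant in both libraries, with values slightly lower in sgTPST2. The membrane-bound CANX (calnexin) stood at 463 FPKM in sgGFP and 405.7 in sgTPST2, the highest level of the 34 in both libraries, with a difference of -0.19. The soluble CALR (calreticulin), which also stores calcium, stood at 279 and 236.7 FPKM, a difference of -0.24. Both ratios were under 1 by more than counting error (0.876, 0.859 to 0.894, and 0.848, 0.827 to 0.871), and neither reached 1.2-fold.

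Among the enzymes of disulfide and proline isomerisation, 6 of 8 had a counting interval wholly under 1, against 27.3% of all genes past the filter. That share takes in genes at all levels, and intervals are narrower for abundant genes, so it is not matched for level. At least 1.2-fold lower were 3 of the 8, against 17.3% of all genes. ERO1A, the oxidase that recharges protein disulfide isomerase (chromosome 14, 52639916 to 52695900), stood at 36.0 FPKM in sgGFP and 25.8 in sgTPST2, a ratio of 0.717 (0.665 to 0.774). Its paralogue ERO1B stood at 4.35 and 4.38 FPKM, a ratio of 1.008 (0.825 to 1.24). ERO1A was the more abundant oxidase in each library, and it alone was lower by more than counting error.

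The disulfide isomerases ranged from lower to equal. PDIA3 (ERp57, the partner of calnexin and calreticulin; chromosome 15, 43746392 to 43773279) was at 124.8 and 94.5 FPKM, a ratio of 0.757 (0.727 to 0.788). PDIA6 (P5, which also acts on IRE1; chromosome 2, 10783391 to 10837977) was at 160 and 122.5 FPKM, a ratio of 0.766 (0.739 to 0.793). TXNDC5 was at 196.5 and 169.1 FPKM and PDIA4 (ERp72) at 114.4 and 102.9, differences of -0.22 and -0.15. P4HB, protein disulfide isomerase itself and a subunit of collagen prolyl hydroxylase, was at 179 and 181.3 FPKM, a ratio of 1.013 (0.982 to 1.04). The cyclophilin PPIB, a proline isomerase that works on collagen, was at 261.2 and 220.6 FPKM, a difference of -0.24. Among the 5 thioredoxin-fold isomerases, P4HB was thus the 1 without a lower value in sgTPST2.

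**Figure D2:**
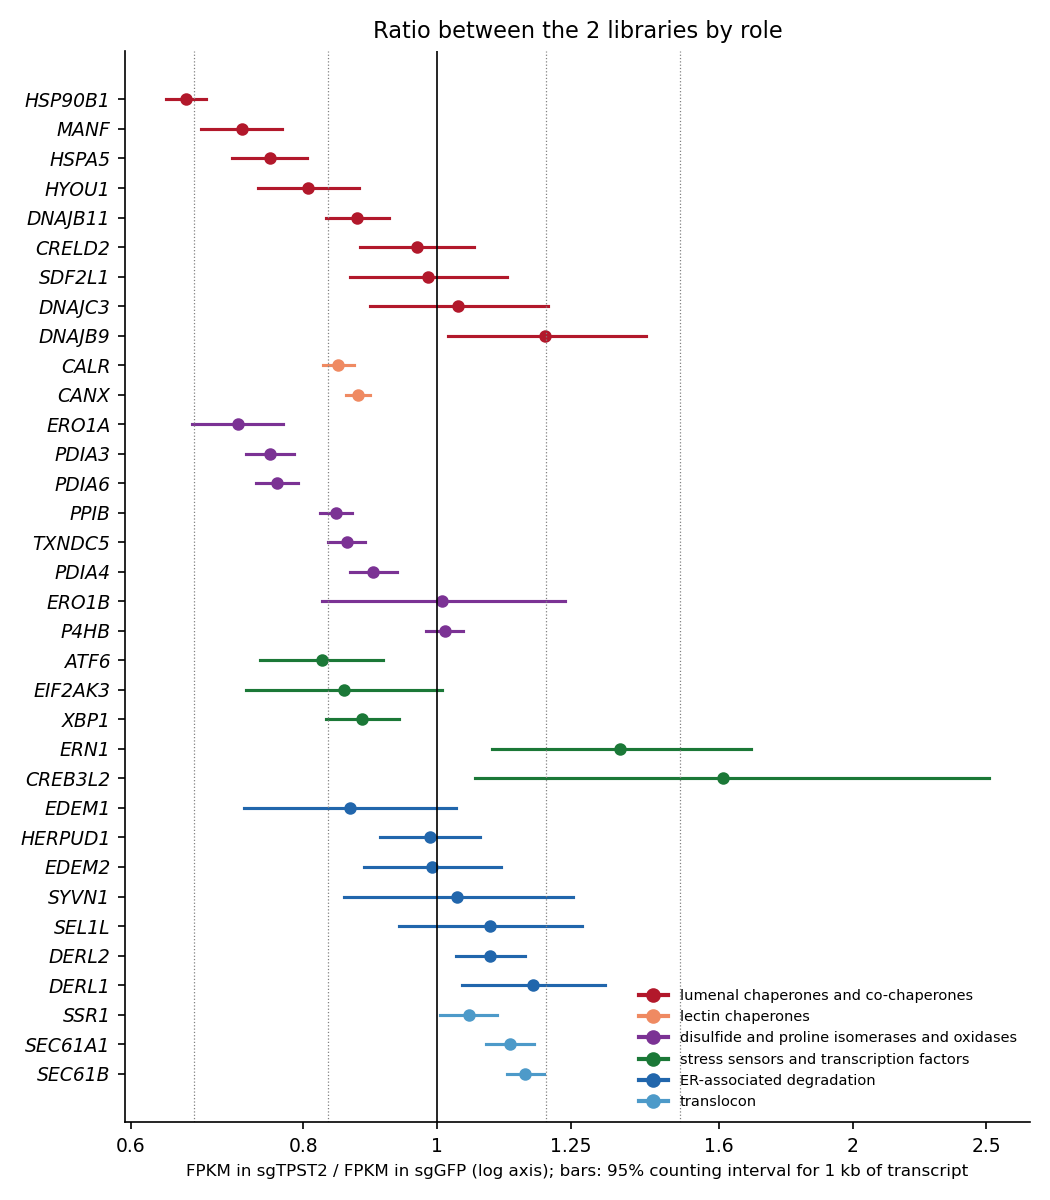
Ratio of FPKM in sgTPST2 to FPKM in sgGFP for each gene (log axis), by role; bars are 95% counting intervals for 1 kb of transcript, and dotted lines mark 1.2-fold and 1.5-fold. HSP90B1 (0.658) is the lowest and CREB3L2 (1.61) the highest, with the widest bar at the lowest level.

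The stress sensors and their transcription factors had differences in both directions. Of the 5, 0 were at least 1.2-fold lower, against 17.3% of all genes, and 2 were at least 1.2-fold higher, against 16.2%. ATF6, cut in the Golgi into a transcription factor, stood at 18.4 FPKM in sgGFP and 15.1 in sgTPST2, a ratio of 0.825 (0.745 to 0.914). This is 1.21-fold lower as a plain ratio, but the difference of -0.26 falls just short of 1.2-fold on the log2(FPKM + 1) scale used for the counts. EIF2AK3 (PERK), the kinase that slows translation, was at 7.20 and 6.17 FPKM, with an interval of the ratio that holds 1 (0.727 to 1.009). ERN1 (IRE1), the nuclease that splices XBP1 RNA, was at 3.41 and 4.63 FPKM, a difference of 0.35 and a ratio of 1.36 (1.10 to 1.69). Of the 3 sensors, ERN1 was the 1 that was higher in sgTPST2.

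XBP1 RNA stood at 49.0 FPKM in sgGFP and 43.3 in sgTPST2, a difference of -0.18. One value per gene cannot tell its spliced from its unspliced form, so IRE1 activity was not measured here. CREB3L2, an ER-bound factor related to ATF6 that promotes secretory capacity, was near the detection filter at 0.858 and 1.38 FPKM, a difference of 0.36 and a ratio of 1.61 (1.07 to 2.51). ERN1 and CREB3L2 were the 2 genes of the list that were 1.2-fold higher, and both stood under 5 FPKM in both libraries. CREB3L2 passed the filter of 1 FPKM only through sgTPST2, the library in which it was higher, so its call supports nothing.

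None of the 7 genes of ER-associated degradation was 1.2-fold apart, against 17.3% of all genes lower and 16.2% higher. HERPUD1, a scaffold of the degradation complex and a sensitive stress target, stood at 25.3 FPKM in sgGFP and 25.01 in sgTPST2, a ratio of 0.988 (0.909 to 1.07). The ubiquitin ligase SYVN1 (HRD1) was at 4.87 and 5.04 FPKM and its adaptor SEL1L at 7.33 and 8.02, and both intervals hold 1. The derlins, which form part of the exit channel, had intervals above 1: DERL1 stood at 11.5 and 13.4 FPKM (ratio 1.17, 1.04 to 1.32) and DERL2 at 50.2 and 54.8 (ratio 1.09, 1.03 to 1.16). The mannose-trimming genes EDEM1, at 6.10 and 5.27 FPKM, and EDEM2, at 13.7 and 13.6, had intervals that hold 1. The median of the 7 was 0.04.

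None of the 3 translocon genes reached 1.2-fold, against 17.3% of all genes lower and 16.2% higher. The ratios of the 3 genes all lay above 1. The channel subunit SEC61A1 stood at 102.2 FPKM in sgGFP and 115.3 in sgTPST2, a ratio of 1.13 (1.09 to 1.18). The small subunit SEC61B stood at 172.5 and 199.9 FPKM, a ratio of 1.16 (1.12 to 1.19). SSR1, part of the translocon-associated complex, was at 75.6 and 79.7 FPKM, a ratio of 1.05 (1.006 to 1.11). All 3 intervals lie above 1, as do those of 27.1% of all genes, a share not matched for the high level of these 3.

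Over the whole list the counting interval lay wholly under 1 for 15 genes, wholly over 1 for 8, and held 1 for 11. The 8 include CREB3L2, which passed the filter only through sgTPST2, the library in which it was higher. Among all genes past the filter, 27.3% lay wholly under and 27.1% wholly over. A difference beyond counting error was thus common in this pair of libraries and is not a measure of replication. These shares are not matched for level, and intervals are narrower for abundant genes. Abundant genes made up much of the lower side: of the 11 genes with a mean of at least 100 FPKM, 8 had a negative difference (median -0.22), and the exceptions were P4HB, SEC61A1 and SEC61B. The 14 genes with a mean under 20 FPKM had a median of 0.02, with 0 of them 1.2-fold lower, against 17.3% of all genes. Level and role overlap in this list. Protein-coding genes with a higher value of at least 20 FPKM were 1.2-fold lower in 12% of cases. Their median was 0.00 over 4827 genes, and 49.2% of them lay below 0.

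**Figure D3:**
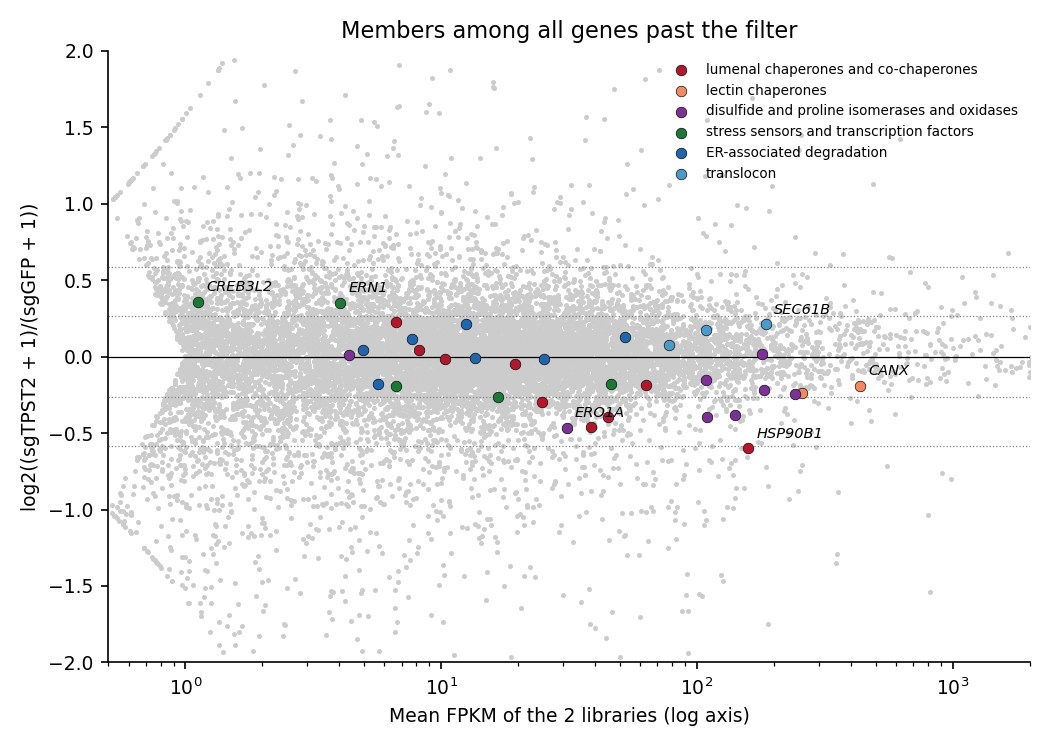
Difference (log2) against mean FPKM (log axis) for the 34 genes, coloured by role, over all genes past the filter in grey; 215 genes outside the drawn range are not shown, and dotted lines mark 1.2-fold and 1.5-fold. HSP90B1 lies lowest at -0.60, and the folding genes of 20 FPKM and above sit mostly under 0.

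In the authors' deposited table all 34 genes were tested and 0 were called, each with q = 0.99965. The smallest p-value there is 0.08385, for HSP90B1, and 0 of the 34 have a p under 0.05. That table calls 0.517% of its 18574 tested genes at q under 0.05.

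The positions of the 34 genes and the genes that overlap them are described here. None of the 34 lies on the short arm of chromosome 12 (12p), where 171 of 192 genes past the filter were at least 1.2-fold lower in sgTPST2. Protein-coding genes within 5 Mb of each of the 7 lower genes had medians from -0.10 to -0.00, the last for the 31 neighbours of HSP90B1. TXNDC5 shares its strand with the readthrough gene BLOC1S5-TXNDC5, at 0.0511 and 3.04 FPKM, so reads may be split between them. SYVN1 overlaps FAU on the same strand, at 311.7 FPKM in both, and DNAJB11 overlaps AC068631.2, at 17.0 and 20.1. The strand setting of the counting is not given, and SEC61A1 overlaps RUVBL1 on the opposite strand, at 154.4 and 150 FPKM. PDIA3P1, a processed copy of PDIA3, was at 3.96 and 3.37 FPKM. The part of these neighbours in the values was not tested.

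Some of the promoters hold the stress elements through which ATF6 and XBP1 act, and the matches are shown as a description. The genes were chosen as members of this stress response, so a share of matches above that of all genes is no independent result. RefSeq windows (GRCh38.p14) of 250 bases before to 50 after each annotated start were given for 32 of the 34 genes. PDIA3 and DERL1 had none. The ER stress element (ERSE) was searched on both strands as CCAAT, then 9 bases of any kind, then CCACG. It was found in 8 of the 32 genes (25%), against 0.0916% of all 27305 gene symbols and 0.0769% of all 35116 windows. The 8 genes were CALR, CANX, CRELD2, ERO1B, HSP90B1, HSPA5, PDIA6 and XBP1. HSP90B1 held 2 matches. In PDIA6 the match lay in the window of a downstream start, and the window of a start farther upstream held none. The matches, read 5′ to 3′ along the strand of the element, follow, with the fixed letters in capitals and the spacer in lower case.
HSP90B1, chr12:103930216-103930234, plus strand: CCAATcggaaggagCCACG
HSP90B1, chr12:103930321-103930339, minus strand: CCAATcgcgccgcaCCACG
HSPA5, chr9:125241391-125241409, minus strand: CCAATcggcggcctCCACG
PDIA6, chr2:10812853-10812871, minus strand: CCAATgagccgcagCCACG
CALR, chr19:12938384-12938402, minus strand: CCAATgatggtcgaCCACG
CANX, chr5:179698778-179698796, plus strand: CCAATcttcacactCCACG
XBP1, chr22:28800603-28800621, minus strand: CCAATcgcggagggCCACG
CRELD2, chr22:49918554-49918572, minus strand: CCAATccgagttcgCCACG
ERO1B, chr1:236282183-236282201, plus strand: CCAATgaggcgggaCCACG

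The second form (ERSE-II) was searched on both strands as ATTGG, then 1 base of any kind, then CCACG. It was found in HERPUD1, SDF2L1 and HYOU1. That is 3 of the 32 genes (9.38%), against 0.0696% of all gene symbols and 0.0541% of all windows. HYOU1 held it 2 times. The XBP1 site TGACGTGG was found in HYOU1 and TXNDC5, against 0.927% of all gene symbols and 0.729% of all windows. In HYOU1 it overlapped 1 of the ERSE-II matches. An ATF4 composite site searched as TGATGNAAT was found in 0 of the 32, against 1.22% of all gene symbols and 0.991% of all windows. The 250 bases before the start are shown for HSPA5 and HYOU1, the lower genes with an element whose window holds no annotated exon, with the matched letters in capitals.
HSPA5, chr9:125241344-125241593, minus strand: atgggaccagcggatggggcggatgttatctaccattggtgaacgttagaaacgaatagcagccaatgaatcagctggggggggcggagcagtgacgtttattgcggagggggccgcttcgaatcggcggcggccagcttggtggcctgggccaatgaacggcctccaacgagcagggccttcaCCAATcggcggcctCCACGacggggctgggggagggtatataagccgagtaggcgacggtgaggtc
HYOU1, chr11:119057206-119057455, minus strand: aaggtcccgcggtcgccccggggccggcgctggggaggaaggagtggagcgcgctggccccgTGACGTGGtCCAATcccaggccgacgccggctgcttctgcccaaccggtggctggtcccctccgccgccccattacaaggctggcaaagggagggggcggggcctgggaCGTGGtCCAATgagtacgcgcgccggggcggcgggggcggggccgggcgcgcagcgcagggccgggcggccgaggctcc

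The 11 genes with an ERSE or ERSE-II match had a median difference of -0.19, with 10 below 0 and 4 at least 1.2-fold lower. Of all 13420 genes past the filter, 6714 lay below 0 and 17.3% were at least 1.2-fold lower. The 21 genes with a window and no exact match to either element had a median of 0.02, with 10 below 0. Of them, 2 were at least 1.2-fold lower (ERO1A and MANF) and 2 at least 1.2-fold higher. Near matches were not searched for, so these genes may hold imperfect elements. PDIA3, a lower gene, had no window and is in neither group. The genes with an element were all folding genes except XBP1 and HERPUD1, while the translocon genes all had neither element. Element and role thus overlap in this list, and the difference between the groups was not tested. Matches were also present in genes with almost no difference, such as SDF2L1, HERPUD1 and ERO1B. The 16 other genes past the filter that hold either element had a median of -0.08, with 2 at least 1.2-fold lower and 3 higher. The lower ones were FICD, the enzyme that modifies BiP, at 2.09 and 1.49 FPKM, and NUCB1, a calcium-binding Golgi protein, at 34.4 and 27.5. The higher ones were PLS3, an actin-bundling protein, at 201.6 and 282.3 FPKM, TMEM120A at 33.1 and 44.4, and TRIM5, a restriction factor, at 8.36 and 10.8. These 5 were named after their values were seen. A match is a description of the letters in the window and says nothing of whether a factor was bound.

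**Figure D4:**
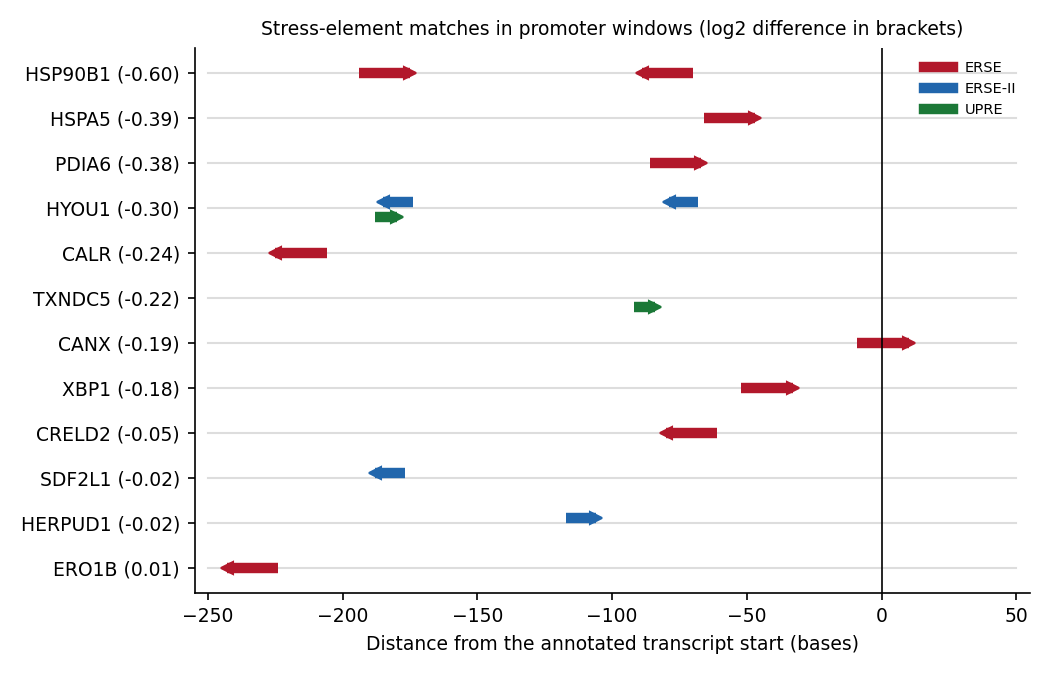
Positions of ERSE, ERSE-II and XBP1-site (UPRE) matches relative to the annotated start (in bases, arrowheads give the orientation), ordered by log2 difference in brackets; for CANX, whose single match falls in 3 windows, 1 start is drawn. HSP90B1 (-0.60) and HYOU1 (-0.30) each hold 2 elements of 1 kind, and ERO1B (0.01) holds 1 with no difference in level.

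The list medians of the wider secretory pathway stayed close to 0. For the counts in these and the following lists, 17.3% of all genes past the filter were 1.2-fold lower and 16.2% higher. The 15 other ER redox proteins had a median of -0.05 with 1 gene 1.2-fold lower and 1 higher; the higher one was GPX8, an ER peroxidase, at 45.3 FPKM in sgGFP and 74.4 in sgTPST2. The 17 other degradation genes past the filter had a median of 0.01 with 1 lower and 1 higher, the latter the ubiquitin ligase RNF5 at 11.8 and 15.1 FPKM. The 19 other translocon and signal peptidase genes had a median of -0.00 with 4 lower and 0 higher. The largest difference there was SEC11C, a catalytic subunit of signal peptidase, at 57.0 and 32.7 FPKM.

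N-glycosylation and glycan quality control genes, which serve the lectin cycle of CANX and CALR, numbered 22 past the filter (median -0.06), with 3 lower and 0 higher. STT3A, the catalytic subunit of the oligosaccharyltransferase that works at the translocon, was at 77.2 and 59.0 FPKM. The COPII coat and KDEL receptor genes, which carry cargo out of the ER and return escaped chaperones, numbered 21 (median 0.02), with 1 lower and 3 higher, the lower one being SEC23B at 44.1 and 27.9 FPKM. The 13 collagen-directed enzymes had a median of 0.12 with 1 lower and 2 higher, among them PLOD2, a lysyl hydroxylase, at 4.59 and 8.18 FPKM. Below 0 lay 14 of the 22 glycosylation genes, 9 of the 21 transport genes and 4 of the 13 collagen-directed enzymes, against 15 of the 19 folding genes; the differences between lists were not tested.

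The PERK and ATF4 branch gave a median of -0.04 for its 16 genes past the filter, 1 of them 1.2-fold lower and 2 higher. ATF4, its transcription factor, stood at 174.8 FPKM in sgGFP and 164.6 in sgTPST2, and DDIT3 (CHOP), a later mediator of stress-induced death, at 11.4 and 9.73; both were chosen for their role. The target ASNS, asparagine synthetase, had the largest difference at 5 FPKM or more, at 53.3 and 73.4 FPKM. ATF3, also chosen for its role, was the lower gene, at 2.47 and 1.12 FPKM. A mixed list of other ER-bound factors, processing proteases and further genes numbered 12 (median -0.04), with 2 lower and 1 higher. It holds NFYA, NFYB, NFYC, YY1, TRAF2, BAX and BAK1, which are neither ER-bound transcription factors nor processing proteases. Among the lower genes was BAK1, a cell death effector, at 18.1 and 13.5 FPKM.

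Calcium stored in the ER is needed by CALR and other chaperones, and the calcium handling genes numbered 14 (median -0.07), with 3 lower and 1 higher. The lower ones were the inositol trisphosphate receptors, which release that calcium. ITPR1 stood at 7.34 FPKM in sgGFP and 1.52 in sgTPST2, ITPR3 at 35.8 and 19.6, and ITPR2, a gene of 12p, at 6.33 and 4.001 (named to complete the family). Among 12 genes that shape the ER membrane (median -0.02), KTN1, a kinesin-binding ER protein, was at 181.3 and 66.7 FPKM and was the 1 gene 1.2-fold apart. These differences were larger than that of HSP90B1 in KTN1, ITPR1 and ITPR3.

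Chaperones of other compartments gave a comparison for the ER set. The 24 cytosolic chaperones had a median of -0.07 with 1 gene lower and 1 higher, the higher one being BAG3, a co-chaperone of HSP70, at 32.6 and 45.3 FPKM. HSP90AA1, the cytosolic relative of HSP90B1, chosen for that relation, was at 673.4 and 519.7 FPKM, a difference of -0.37. The 13 mitochondrial chaperones and proteases had a median of -0.17 with 4 lower and 1 higher. Those at least 1.5-fold lower were TRAP1, the mitochondrial HSP90, at 97.8 and 60.9 FPKM, and PHB2, also on 12p, at 321.5 and 174.3. HSP90AB1, the other cytosolic HSP90, was at 957.9 and 887.1 FPKM, a difference of -0.11. Both list medians were nearer 0 than that of the 19 ER folding genes (-0.22). The shares below 0 were similar, with 18 of 24 cytosolic, 10 of 13 mitochondrial and 15 of 19 ER folding genes. The difference between lists was not tested.

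**Figure D5:**
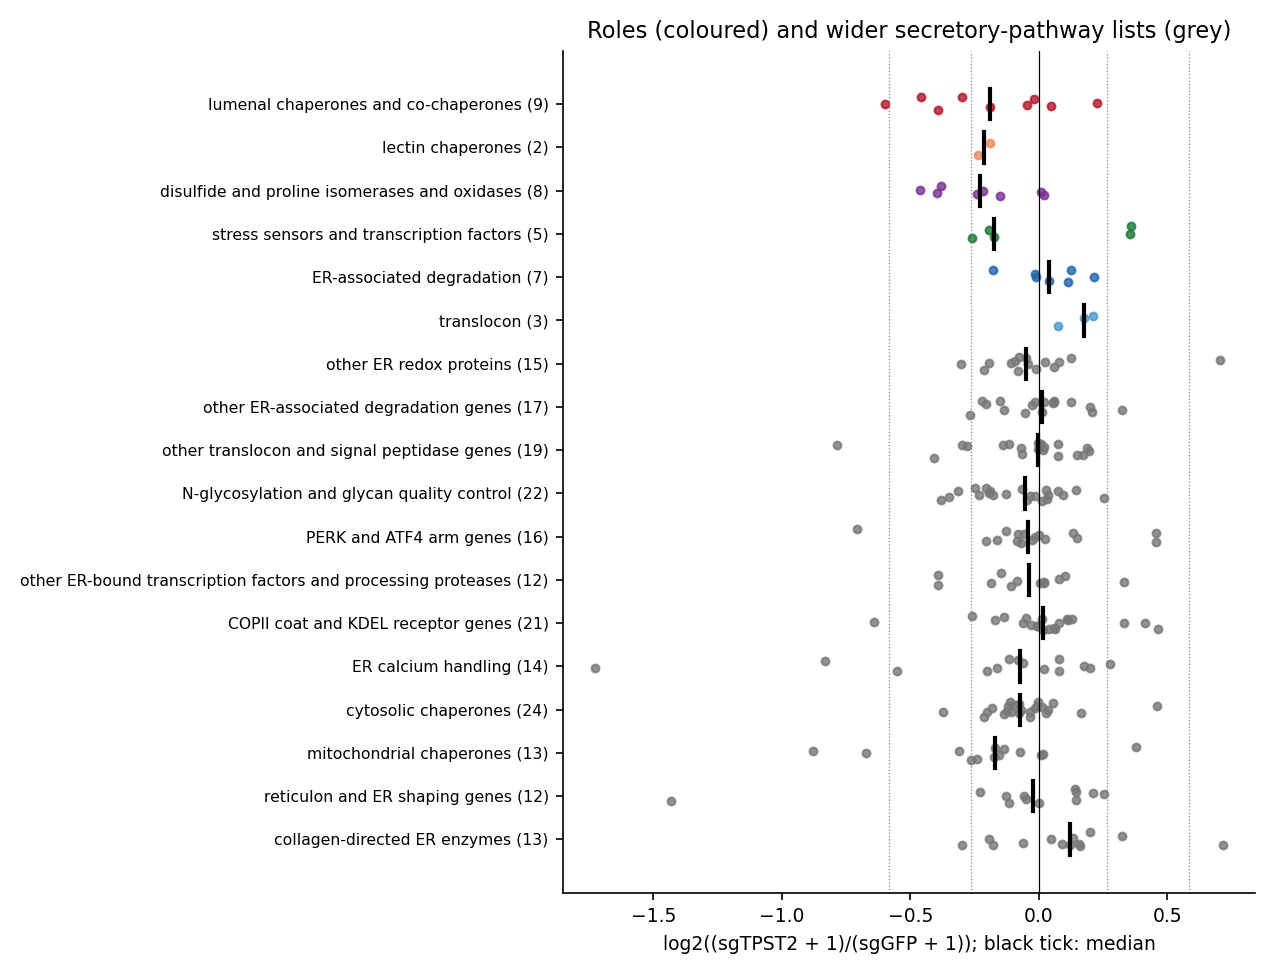
Difference (log2) of each gene past the filter, for the 6 roles (coloured) and for 12 wider lists (grey), with the number of genes in brackets and a black tick at the median; dotted lines mark 1.2-fold and 1.5-fold. Medians of the chaperone, lectin and isomerase roles lie between -0.23 and -0.19, and those of most wider lists between -0.10 and 0.05.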

How the data were processed

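The deposited table holds 1 value per gene and library, read as FPKM; the authors made it with STAR and Cuffdiff on hg38, per the submitters' processing notes, and the sources used here do not give versions, annotation or strand setting. Each p-value and q-value printed is the authors' own; the authors' log2 fold change equals the log2 difference used here, and the deposited test statistic (a score) was not used. All 58698 gene identifiers matched GENCODE release 29 (GRCh38). Genes at 1 FPKM or more in either library entered, and a pseudocount of 1 was added. Genes are called by fold (1.2 or 1.5), with no test, since each group is 1 library.

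Depth came from genes with 1 annotated transcript over 1500 bp, whose low values, after subtraction of 190 bp (sgGFP) or 180 bp (sgTPST2) from the length, were multiples of 1 step; 91.3% of 839 values in sgGFP and 93.0% of 776 in sgTPST2 came within 0.1 of whole fragments, on the values used to fit the step. This step fit was tested on simulated data. The members, lists and alternatives were chosen with earlier results of these data known. Named genes are all 34 members, TPST2, and from each list those at least 1.5-fold apart at 5 FPKM or more (up to 4), or else the largest difference; other genes were named for their role, family or position after their values were seen. Promoter windows that overlap annotated exons are not printed in full. Python 3.11.15, scipy 1.17.1 and pandas 2.3.3 were used. Pseudocount, filter and scaling were varied.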

Additional observations from a re-analysis of the deposited data

How the results depend on the processing

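No paired analysis was possible because there was 1 library per guide, which also leaves no replicate to omit. With a pseudocount of 5, the members at least 1.5-fold lower went from 1 to 0 and those at least 1.2-fold higher from 2 to 0. A filter of 5 FPKM on the higher value also left 0 members at least 1.2-fold higher, since ERN1 and CREB3L2 then drop out. With a pseudocount of 0.1, 1 member, CREB3L2, was at least 1.5-fold higher, where 0 were before. With the filter of 5 FPKM the median of the members was -0.18, against -0.10 as reported. With a pseudocount of 0.1 the members at least 1.2-fold lower were 8, with ATF6 added (difference -0.28), and with a pseudocount of 5 they were 6, against 7. These values included, the other 73 counts and medians, over all alternatives, stayed within 1.5 times the reported count or within the counting error of the members, and no called difference changed sign. Equal upper quartiles moved the median of all genes to 0.00 and equal sums to 0.01. Among protein-coding genes of at least 20 FPKM the background of 1.5-fold lower genes was 4.33% and of higher genes 2.11%. Depth limits the members under 5 FPKM most, where an interval for 1 kb spans up to 1.07 to 2.51.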
